A study of Mus musculus with 4 samples.

Results

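Of 121574 open chromatin regions listed by the authors for mouse incisor mesenchyme, 7101 regions (5.84%) held 0 reads in the wild-type library. They were chosen by that value alone, the minimum of the wild-type column, so their lack of reads is the rule and not a result. The next steps were 10922 regions with 1 read, 10844 with 2 and 9507 with 3. These 31273 regions with 1 to 3 reads served as the comparison. The library came from dental mesenchymal cells of the incisors of wild-type C57BL/6 mice aged 4 weeks, with no treatment. All 4 deposited samples were lanes 1 to 4 under 1 name, so there was 1 library and no replicate error. The sources used here give neither the number of animals nor the set of libraries on which regions were called.

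ATAC-seq uses a transposase that cuts DNA where it is not wrapped around histones and adds sequencing adapters to the cut ends. A peak caller then lists stretches with more cuts than their surroundings, and reads are counted over each listed stretch. Promoters, the stretches around the transcription start site (TSS) of a gene, are often open, and many lie in CpG islands, which are rich in G, C and the pair CG. Open stretches away from promoters are often enhancers, which hold binding sites for factors of the cell type. Dental mesenchyme is the inner tissue of the tooth, derived largely from the neural crest, and gives rise to pulp and to the odontoblasts that make dentin.

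The listed regions held 2297894 reads, a median of 7 each, and 11.1% of the 20662747 that the CPM values imply as the library total. The library label was checked on marker genes. All 10 dental mesenchyme markers had a region, with a median of 296 reads a gene. Medians were 96.5 reads for 6 odontoblast markers, 64 for 5 endothelial markers, 57.5 for 6 dental epithelium markers and 35.5 for the 4 of 5 leukocyte markers with a region. Reads a gene were summed over its regions, whose number differed. Dental mesenchyme markers had 222 regions, odontoblast 75, endothelial 105, dental epithelium 35 and leukocyte 53. The totals were 3567, 1494, 1329, 601 and 664 reads in that order, so these medians do not rank the tissues region by region. Markers of other cell types thus held reads beside those of the labelled tissue, and the part of such cells in the results below was not tested.

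The sequences of 4 regions with 0 reads show how far their base composition and position ranged. They were read from the mm10 genome (RefSeq GRCm38.p6) on the plus strand, 5′ to 3′. Capitals mark each CG pair, except in the Pard3 sequence, where they mark another word. The first is the promoter region of highest GC content, chr14:34819860-34820036, 160 bases upstream of the nearest TSS of Grid1, a gene for a delta glutamate receptor subunit. It touched a region with 15 reads, and 84.7% of its 177 bases were G or C.
Grid1 promoter region: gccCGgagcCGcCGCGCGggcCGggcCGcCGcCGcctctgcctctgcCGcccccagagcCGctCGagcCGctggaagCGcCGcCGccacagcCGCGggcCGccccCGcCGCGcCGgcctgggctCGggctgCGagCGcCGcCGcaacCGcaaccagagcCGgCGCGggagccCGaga
The second, chrX:140277764-140277943, has the highest GC content away from promoters in that set, 80.0%. Over all members away from promoters, the highest was 84.5%. The second region lies in a noncoding gene 64.4 kb upstream of Frmpd3 and touched a region with 7 reads.
Region near Frmpd3: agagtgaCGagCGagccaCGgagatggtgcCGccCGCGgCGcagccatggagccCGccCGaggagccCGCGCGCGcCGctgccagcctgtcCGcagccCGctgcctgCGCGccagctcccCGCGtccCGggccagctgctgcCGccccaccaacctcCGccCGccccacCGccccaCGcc
The third, chr8:54493096-54493255, has the lowest GC content, 28.1%, and no CG pair. It lies in intergenic sequence 36.8 kb downstream of the TSS of Spcs3, a gene for a signal peptidase subunit, and touched a region with 8 reads.
Region near Spcs3: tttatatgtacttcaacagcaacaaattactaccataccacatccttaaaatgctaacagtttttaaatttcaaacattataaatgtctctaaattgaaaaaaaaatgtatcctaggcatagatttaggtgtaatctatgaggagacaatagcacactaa
The fourth, chr8:127737849-127738076, has the most matches in that set to the AP-1 or CTCF consensus words. It holds 3 AP-1 matches (TGANTCA), shown in capitals, and ties went to the first region in genome order. AP-1 factors, dimers of Fos and Jun proteins, bind this word. The region is intergenic, 432 kb downstream of the TSS of Pard3, a cell polarity gene, and touched no other region.
Region near Pard3: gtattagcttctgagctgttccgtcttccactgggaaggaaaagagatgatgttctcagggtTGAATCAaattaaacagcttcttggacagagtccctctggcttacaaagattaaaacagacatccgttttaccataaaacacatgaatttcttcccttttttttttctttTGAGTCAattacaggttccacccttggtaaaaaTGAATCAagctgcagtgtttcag
Regions without reads thus included CpG-dense promoter sequence and sequence without a single CG pair.

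Regions with 0 reads were narrow. Their median width was 162 bases (95% order-statistic interval 160 to 163; quartiles 134 and 196), against 187 bases (186 to 187; quartiles 150 and 235) in regions with 1 to 3 reads and 261 bases in all regions. They made up 5.84% of the regions but covered 1.19 Mb of 39.0 Mb, or 3.05%. Regions under 150 bases were 39.5% of those with 0 reads and 24.8% of those with 1 to 3 reads, a difference of 14.7 percentage points (95% interval 13.5 to 16). Here and below, intervals count regions as independent, cover counting error alone, and describe 1 library.

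The share of regions with 0 reads fell with every step in width. It was 27.5% of the 2452 regions under 100 bases and 19.2% from 100 to under 150 bases. It was 11.6% from 150 to under 200 bases, 5.48% from 200 to under 250 bases and 2.33% from 250 to under 300 bases. From 400 to under 600 bases, 14 of 17815 regions (0.0786%) had 0 reads. None of the 11231 regions of 600 bases or more did, which allows a share of up to 0.0328% (exact 95% interval). A narrower stretch collects fewer reads at the same density, so a value below that is not matched on width includes this difference. A count of 0 also allows up to 3 reads, or 0.145 CPM. At the median width of 162 bases that is 18.5 reads per kb, above the median of 9.80 reads per kb in regions with 1 to 3 reads and below the 25.2 reads per kb of all regions. Regions with 0 and with 1 to 3 reads therefore cannot be told apart one by one at this depth.

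**Figure D1:**
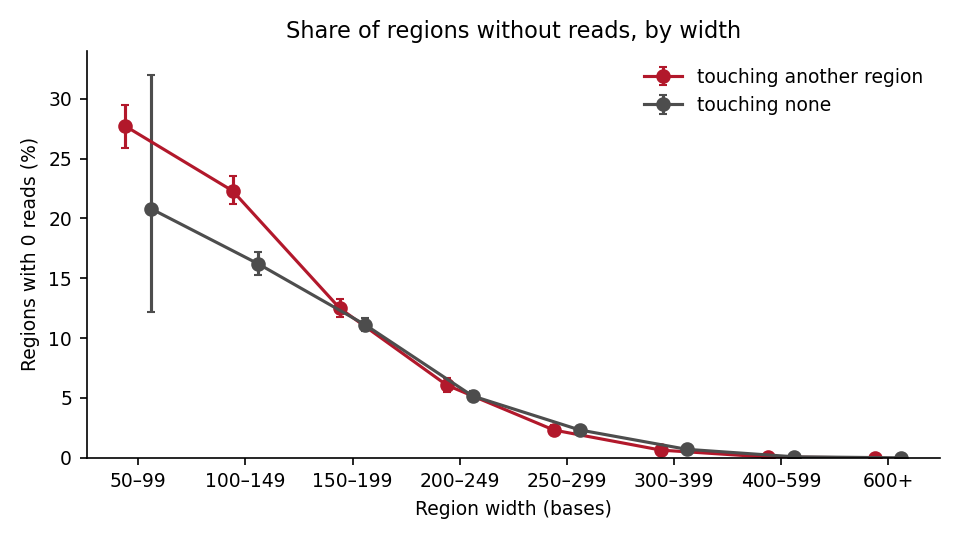
Share of listed regions with 0 reads (vertical axis, %) by region width in bases (horizontal axis), for regions touching another (red) and touching none (grey), with exact 95% binomial intervals. Both shares fall with width, from 27.7% and 20.8% under 100 bases to 2.32% and 2.33% from 250 to under 300 bases.

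A few members were wide. The widest, chr12:16786745-16787335, has 591 bases in an intron of Greb1, an oestrogen-responsive gene, and its nearest regions on either side had 1 read each. The next, chr8:87913999-87914579, has 581 bases in an intron of Zfp423, a zinc finger factor of precursor cells, between regions with 3 and 4 reads. The third, chr7:62419423-62419902, has 480 bases in the promoter of Mkrn3, an imprinted gene expressed from the paternal copy, and touched a region with 22 reads. The other two, chr2:105074934-105075407 and chr13:52046593-52047061, are intergenic, with 474 and 469 bases. The nearest regions to 4 of these 5 held 0 to 7 reads, so only the Mkrn3 region lay beside a well-covered one.

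Close to 1 in 2 regions without reads touched another region with no base between them. Of regions with 0 reads, 49.2% touched another on at least 1 side, against 44.4% of those with 1 to 3 reads, a difference of 4.79 points (3.50 to 6.07). The difference was not seen at equal widths: it was -0.541 points after weighting to the same widths, and -0.580 points among regions of at least 150 bases. Within width classes, 22.3% of touching and 16.2% of separate regions of 100 to under 150 bases had 0 reads. At 150 to under 200 bases, the shares were 12.5% and 11.1%. These shares are over all regions of the width class, also those with over 3 reads. Among regions with 0 to 3 reads alone, they were 26.8% and 24.2% in the narrower class. In the wider class they were 19.4% and 20.9%. Widths still differed within the narrower class, with medians of 128 bases in touching and 138 in separate regions. A member had neighbours on both sides in 0.366% of cases, against 0.978% of regions with 1 to 3 reads.

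The touching neighbours were wide and well covered. Over 3519 pairs, the neighbour of a region with 0 reads had a median of 22 reads (quartiles 11 and 47), a width of 358 bases and 61.1 reads per kb. Neighbours of regions with 1 to 3 reads, in 14192 pairs, had 21 reads (quartiles 10 and 47), 353 bases and 59.8 reads per kb. Medians of both groups were thus close. At least 10 reads stood in 79.7% of neighbours (78.3 to 81.0) beside regions with 0 reads, against 76.4% (75.7 to 77.1), and in promoters in 94% (92.5 to 95.3), against 90.8% (89.9 to 91.6). The neighbour was wider than the member in 93.9% of pairs with 0 reads, against 86.6% of those with 1 to 3 reads. It had 0 reads too in 10 pairs (0.284%), against 0.902%.

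**Figure D2:**
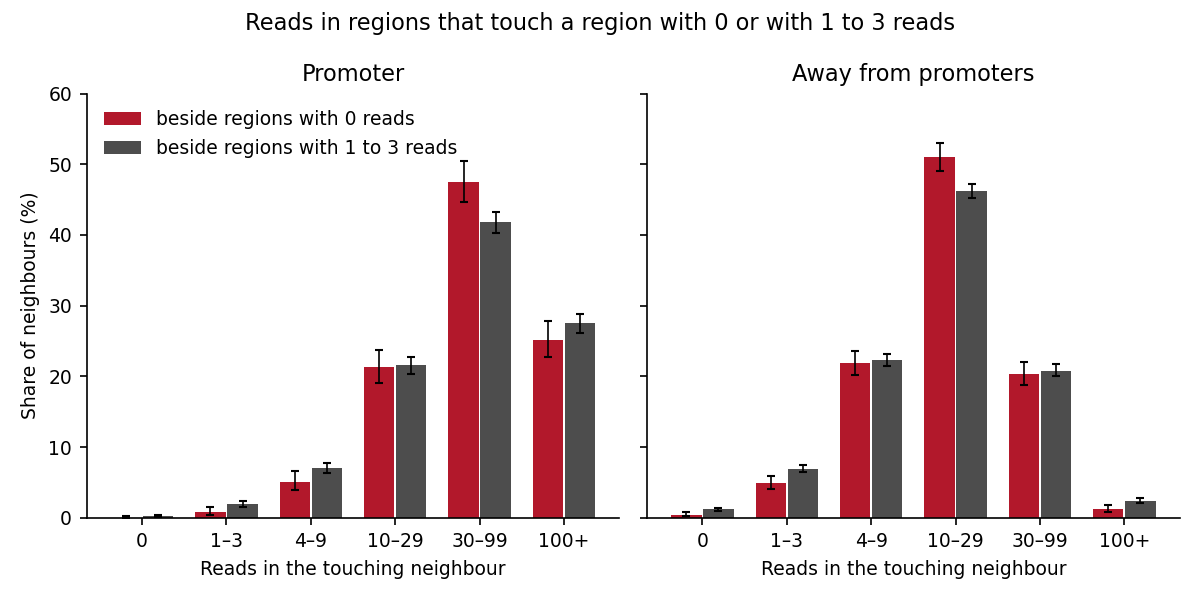
Share of touching neighbours (vertical axis, %) by the reads they hold (horizontal axis), beside regions with 0 reads (red) and with 1 to 3 reads (grey), with exact 95% binomial intervals, in promoters (left) and away from them (right). Beside promoter regions with 0 reads, 47.5% of neighbours held 30 to 99 reads and 25.2% held 100 or more, and away from promoters 51.0% held 10 to 29.

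Touching and separate members differed in place and sequence. The 3493 touching members had a median width of 145 bases, a GC content of 51.6%, and lay 16.8 kb from the nearest protein-coding TSS. The 3608 separate members had 173 bases, a GC content of 49.1%, and lay 45.7 kb away. Promoters held 32.6% of the touching members and 3.94% of the separate ones. Those values were close in regions with 1 to 3 reads, at 32.0% and 4.48%, so both groups showed a similar gap between touching and separate regions. Separate members had their nearest listed region 5.16 kb away (4.97 to 5.38), against 5.17 kb (5.05 to 5.26) for separate regions with 1 to 3 reads. That region held a median of 6 reads in both groups.

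By genomic class, 1280 regions with 0 reads lay in promoters, here within 1 kb of a protein-coding TSS, 2642 in introns and 2499 in intergenic sequence. A further 478 lay in noncoding genes, 121 in coding exons and 81 in untranslated exons. Promoters held 18% of regions with 0 reads, against 16.7% of those with 1 to 3 reads (difference 1.31 points, 0.337 to 2.31) and 30.4% of those with over 10 reads. Introns held 37.2% against 39.0% (-1.78 points, -3.02 to -0.527), and intergenic sequence 35.2% against 35% (0.229 points, -0.994 to 1.47). Among separate regions alone the promoter difference turned to -0.545 points (-1.21 to 0.202), and the intron difference was -1.37 points (-3.15 to 0.412). The class makeup of regions without reads was therefore within 2 points of that of regions with 1 to 3 reads in each class. That bound says little for exons, which are small classes. Coding exons held 1.70% against 1.53%, and untranslated exons 1.14% against 1.19%. Among separate regions of at least 150 bases, coding exons held 2.26% against 1.47% (0.789 points, 0.246 to 1.45). Over all separate regions that difference was 0.356 points (-0.0806 to 0.879).

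**Figure D3:**
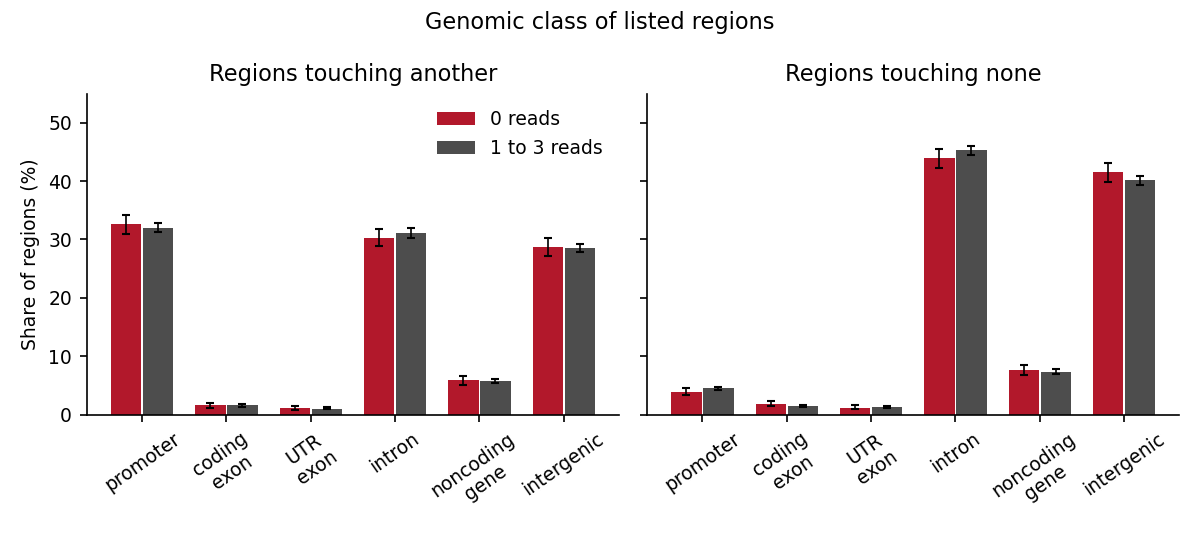
Share of regions in each genomic class (vertical axis, %) among regions with 0 reads (red) and with 1 to 3 reads (grey), with exact 95% binomial intervals, for regions touching another (left) and touching none (right). Promoters hold 32.6% of touching regions with 0 reads and 32.0% of those with 1 to 3 reads, and 3.94% and 4.48% of separate regions in the same order.

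At a fixed width, a larger share of promoter regions than of intron regions was without reads. Among regions of 150 to under 200 bases, 14.6% of promoter regions had 0 reads (exact 95% interval 13.3 to 15.9), against 10.8% of intron regions (10.2 to 11.5). The promoter share was 15.7% in touching regions and 9.66% in separate ones, and the separate value was below that of separate intron regions, 10.7%. Coding exons at that width had 15.4% (11.4 to 20.1). Among regions of that width with 0 to 3 reads, those with 0 reads were 20.4% in promoters and 19.9% in introns, so these 2 classes were close there. Coding exons had 24.9% and untranslated exons 23.9%, from only 286 and 275 regions of that width.

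In promoters, members mostly sat at the outer side of a well-covered region. Of promoter members 88.9% touched another region, against 85.1% of promoter regions with 1 to 3 reads. Their 1151 pairs had neighbours with a median of 56 reads, against 54. The member lay farther from the TSS than its neighbour in 84.4% of pairs (82.1 to 86.4), against 80.7% (79.5 to 81.8). Away from promoters that share was 52.1%, against 50.6%. The member's GC content minus its neighbour's had a median of -6.04 points (-6.76 to -5.16), against -5.25 points for regions with 1 to 3 reads. Its median was 57.7%, against 64.9% in the neighbours, and it held 4.31 CG pairs per 100 bases, against 8.25. Promoter members were thus mostly the outer, less CpG-rich pieces, and the same order held in promoter regions with 1 to 3 reads.

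Of the 5 promoter members richest in CG pairs, 4 lay within 284 bases of a TSS and the Jag2 region 981 bases away. The first, chr7:44892346-44892404, has 59 bases, 9 bases from a TSS of Med25, a Mediator subunit gene, with 20.3 CG pairs per 100 bases, and touched a region with 48 reads. One in Map7d2, chrX:159414603-159414775, had 19.1 CG pairs per 100 bases and touched none. The Grid1 region printed above had 18.6, and one in Zfp318, chr17:46383955-46384116, had 18.5 and touched a region with 123 reads. One in Jag2, a Notch ligand gene, chr12:112928703-112928887, had 18.4 and touched regions with 14 and 7 reads.

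Over all members, base composition was close to that of regions with 1 to 3 reads. Median GC content was 50.2% (quartiles 45.5% and 55.2%), against 49.8% (quartiles 45.1% and 55%), and 50.3% in all regions. CG pairs per 100 bases were 1.38, against 1.40. No CG pair at all stood in 15.2% of members, against 12.6%, a difference of 2.66 points (1.77 to 3.59). Members were narrower, and among separate regions of at least 150 bases that difference was 1.54 points (0.168 to 3.01). Over all regions of 150 to under 200 bases, 31 of 338 with a GC content under 35% had 0 reads (9.17%, 6.32 to 12.8). The share was 9.19% (7.82 to 10.7) from 35 to 40% and 12.5% (11.7 to 13.4) from 45 to 50%. The first and last of these intervals overlap. From 50% upward the share had no steady direction, with 11.3% from 60 to 65% and 12.8% from 65 to 70%.

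Repeated sequence was scarce in both groups. A word of 75 bases, the read length, that occurs more than 1 time in the genome stood in 3.66% of members, against 3.43% of regions with 1 to 3 reads (difference 0.234 points, -0.228 to 0.736). Among separate regions the shares were 5.68% and 4.68%, with an interval of 0.220 to 1.86 points for the difference. Among touching regions they were 1.57% and 1.86% (-0.283 points, -0.717 to 0.231). Weighted to the same widths over all regions, the difference was 0.672 points, without an interval of its own. Among separate regions of at least 150 bases it was 0.883 points (-0.0189 to 1.89). All words were repeated in 0.690% of members, against 0.886%. Over 50% of the bases were masked as repeats in 5.68% of members, against 4.29% (difference 1.38 points, 0.820 to 1.99). Most members thus held sequence found at 1 place in the genome. No member held a word of the mitochondrial genome.

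Short consensus words of transcription factors were counted on both strands in the central 150 bases, so that each region gave the same number of letters. The regions themselves still differed in width between read groups. The word TAATTA, the core bound by homeobox factors such as Msx, Dlx and Lhx proteins, stood in 134 of 4293 members (3.12%, exact 95% interval 2.62 to 3.69). It stood in 4.88% (4.61 to 5.16) of 23511 regions with 1 to 3 reads and 7.34% of all 107984 regions of at least 150 bases. Away from promoters the shares were 3.58% at 0 reads, 5.57% at 1 to 3 reads, 9.48% at 4 to 10 reads and 11.3% over 10 reads. At a regional GC content of 45 to 50%, a band chosen after values were seen, they were 3.57%, 5.16%, 8.43% and 11.6%. Away from promoters, the homeobox word was thus scarcer at each lower step of reads, and the same order stood in that band. Other words given below stood in that order too, so it was not particular to the homeobox word.

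TGTGGTT, the word bound by Runx factors, stood in 3.12% of members (2.62 to 3.69), against 3.97% (3.72 to 4.23) and 4.78% of all regions. Away from promoters it stood in 3.50% at 0 reads, 4.42% at 1 to 3 reads, 6.06% at 4 to 10 reads and 6.20% over 10 reads. AP-1 words (TGANTCA) stood in 4.78% of members (4.16 to 5.46), against 5.40% (5.12 to 5.70) and 4.94% of all. Away from promoters, the AP-1 share did not follow reads in order: it was 5.13%, 5.97%, 6.22% and 5.03% from 0 to over 10 reads. Over all regions it was 5.77% at 4 to 10 reads and 4.02% over 10 reads. TAATTA and TGTGGTT broke the order over all regions too. TAATTA had 8.51% at 4 to 10 reads and 8.11% over 10 reads, and TGTGGTT 5.59% and 4.71%. CTCF core words (CCANNAGGG), of the insulator protein, stood in 2.84%, against 3.07% and 3.79%. Words of promoter factors were near the 1-to-3-read value too. The GC box (GGGCGG) stood in 5.61%, against 6.08%, and the ETS word (CCGGAAG) in 1.23%, against 1.07%, with 11.9% and 2.0% in all regions. Away from promoters, the GC box stood in 2.94%, 3.52%, 4.15% and 7.92% from 0 to over 10 reads. CTCF core words stood in 2.91%, 3.02%, 3.83% and 4.80% there. The other words were the CCAAT box (17.2%, against 16.6%), the TEAD word GGAATG (8.48%, against 9.65%) and the E-box CATCTG (13.1%, against 13.3%). Rarer ones were the GATA word AGATAAG (1.40%, against 1.57%), the NRF1 core GCATGCGC (0.21%, against 0.251%) and the CRE TGACGTCA (0.14% in both). Runs of A (AAAAAAAA) stood in 2.42%, against 2.82%, and CA repeats (CACACACA) in 3.05%, against 2.45%. Away from promoters, runs of A rose with reads too, at 2.47%, 2.99%, 3.68% and 3.87%. CA repeats fell there, at 3.27%, 2.59%, 2.38% and 2.26%. Over all regions of at least 150 bases, TAATTA and TGTGGTT were the words of these 14 whose intervals did not overlap between 0 and 1 to 3 reads. In the GC band of 45 to 50% the intervals overlapped for both: TAATTA had 2.59 to 4.78 at 0 reads and 4.63 to 5.73 at 1 to 3 reads, and TGTGGTT stood in 3.90% (2.88 to 5.15), against 4.44% (3.95 to 4.97). The TGTGGTT intervals overlapped away from promoters too, at 2.92 to 4.15 and 4.14 to 4.71. Among separate regions the CA repeat stood in 3.32% at 0 reads (2.67 to 4.07), against 2.38% (2.13 to 2.64). The TEAD word away from promoters stood in 8.77%, against 10.3%, also without overlap. A match is a description of letters, not a bound site.

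**Figure D4:**
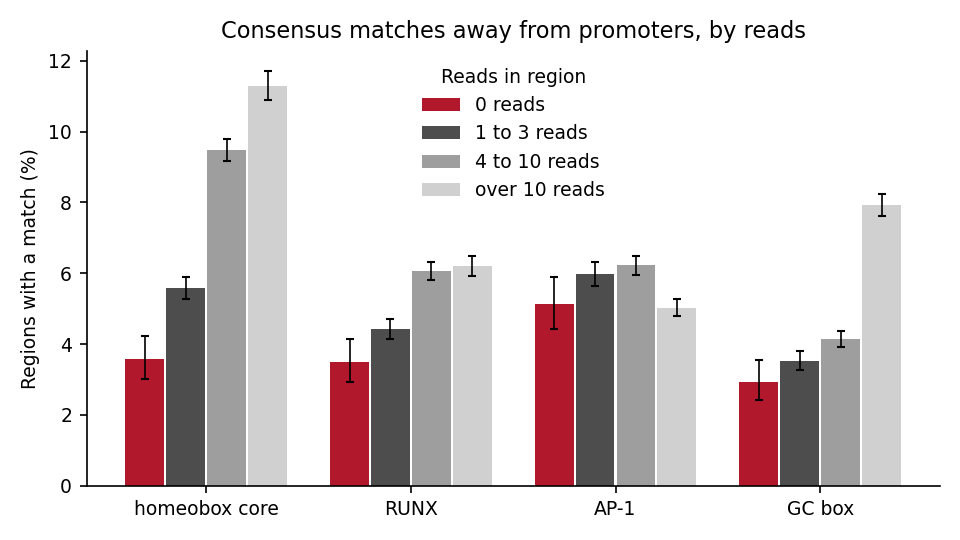
Share of regions away from promoters whose central 150 bases hold a consensus word (vertical axis, %), by reads in the region from 0 (red) to over 10 (light grey), with exact 95% binomial intervals. The homeobox core stands in 3.58% at 0 reads and 11.3% over 10 reads. The GC box rises as well, from 2.94% to 7.92%, and AP-1 does not follow that order.

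Members were scattered over genes. Regions were given to protein-coding genes by the nearest TSS (GENCODE vM21 basic), at a median distance of 30.8 kb (29 to 32.3), against 32.1 kb (31.4 to 33.0) for regions with 1 to 3 reads. Of 16838 genes with a region, 4691 (27.9%) had at least 1 with 0 reads, and 3271 had exactly 1. The median gene among those 4691 had 10 regions and 149 reads, against 4 regions and 85 reads over all genes. The part of the number of regions in this was not tested.

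The 10 genes with the most members had 44 to 91 regions each, and their members lay far from the TSS, at medians of 109 kb (Sulf1) to 443 kb (Tbl1xr1). Zfp386, a zinc finger gene, had 13 regions with 0 reads of 57, a median of 399 kb away, and Diaph3, an actin-nucleating formin, had 13 of 91. Tbl1xr1, part of a nuclear receptor corepressor, had 11 of 89. Irs2, an insulin and IGF signalling adaptor, had 10 of 61, and the Mediator gene Med10 had 9 of 44. Gm10295 had 9 of 57, Sulf1, a heparan sulfate editing enzyme, 9 of 66, and the Kruppel-like factor Klf6 9 of 77. Dap and Ubash3b had 8 each, of 56 and 73. These 10 genes held 328 reads (Zfp386) to 1366 reads (Klf6) in their other regions, so each had reads elsewhere.

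Only 121 genes had no read in any region, and 119 of these had a single region. Olfr876, an odorant receptor gene, and Rnf222 had 2 regions each, all at 0. With single regions at 0, 2300003K06Rik, 2610528J11Rik and AC170998.1 come next by the rule.

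Promoters of single genes were seldom without reads. For these counts by gene, a promoter region was any that overlapped the window of 1 kb on either side of a TSS. The classes above used midpoints instead, and here 1 region could count for more than 1 gene. A promoter region with 0 reads belonged to 1386 of the 14172 genes with a promoter region, and 1326 of these (95.7%) had reads in another promoter region. Their promoters held a median of 66 reads in all, against 67 for all genes with a promoter region. Among the listed genes, Col1a1, the main collagen chain of dentin and bone, had 1 of 5 promoter regions at 0 and 59 promoter reads. Dmp1, a matrix protein of odontoblasts and osteocytes, had 1 of 2 at 0 and 9 promoter reads. The remaining 60 genes had no read in any promoter region. They included Hoxd10 and Hoxa13, which pattern the limbs and body axis, and Emcn, an endothelial sialomucin, each with 1 promoter region. The other endothelial genes with a promoter region at 0 had reads in their remaining ones, 52 for Flt1, a VEGF receptor, and 5 for the transcription factor Sox17.

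The gene lists had between 1.54% and 12.1% of their assigned regions at 0, around the 5.84% of all regions. Dental mesenchyme genes had 9 of 352 (2.56%, exact 95% interval 1.18 to 4.80). The most among them were in Msx2, a homeobox factor of tooth mesenchyme, with 5 of 64 regions and 1061 reads. Odontoblast and osteoblast genes had 10 of 211 (4.74%), 2 of them in Mepe, a mineral-binding matrix protein. Housekeeping genes had 1 of 55 (1.82%), in Ywhaz.

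Signalling lists were near the share of all regions. Hedgehog genes had 21 of 300 (7.0%), with 6 of 41 for Gas1, a hedgehog co-receptor. Wnt genes had 20 of 338 (5.92%), with 6 of 58 for Tcf7l2, a Wnt effector. BMP and TGF-beta genes had 29 of 440 (6.59%), with 6 of 41 for the ligand Tgfb2. Chondrocyte genes had 15 of 237 (6.33%), with 7 of 53 for Sox5.

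Lists of other cell types held between 40 and 198 regions. Leukocyte genes had 1 of 65 (1.54%, 0.0389 to 8.28), in Laptm5, with only 9 of 15 genes having a region. Endothelial genes had 11 of 198 (5.56%), 4 of them in Erg. Dental epithelium genes had 10 of 168 (5.95%), 5 of them in Sox2. Neuron genes had 7 of 122 (5.74%), and Schwann and glia genes 5 of 73 (6.85%), with 2 of 6 in Sox10. Skeletal muscle genes had 2 of 41, 1 of them in Ckm, and liver genes 2 of 40, both in Apob. Germ line genes had 3 of 82, 1 of them in Dazl. Hox genes, of which 19 of 39 had a region, had 4 of 33 at 0 (12.1%, 3.4 to 28.2), and Hoxd10 had no other region. Apart from the dental mesenchyme list, the interval of each list contains 5.84%, and widths were not matched between lists.

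Members lay beside another member about as often as regions with 1 to 3 reads did. Members were 5.84% of all listed regions, and run lengths were not set against that share. Of the runs of consecutive regions without reads, 6457 held 1 region, 290 held 2, 20 held 3 and 1 held 4. The run of 4, chr7:68031012-68055238, spans 24.2 kb assigned to Igf1r, the receptor of insulin-like growth factors, and none of its regions touched another. A neighbour in genome order with 0 reads stood beside 9.07% of members (8.41 to 9.76) and 9.43% of regions with 1 to 3 reads (9.11 to 9.76). The first runs of 3 lay near Dad1, Nfe2l3, Fam92b and Pknox2.

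By chromosome, the share of regions with 0 reads was 5.89% over the autosomes, between 5.05% on chromosome 18 and 6.64% on chromosome 5. On chromosome X it was 3.15% (70 of 2220; exact 95% interval 2.47 to 3.97). Among regions under 200 bases, a limit chosen after values were seen, the X share was 8.82% (54 of 612), against 15.1% on the autosomes. The sources used here do not give the sex of the animals.

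**Figure D5:**
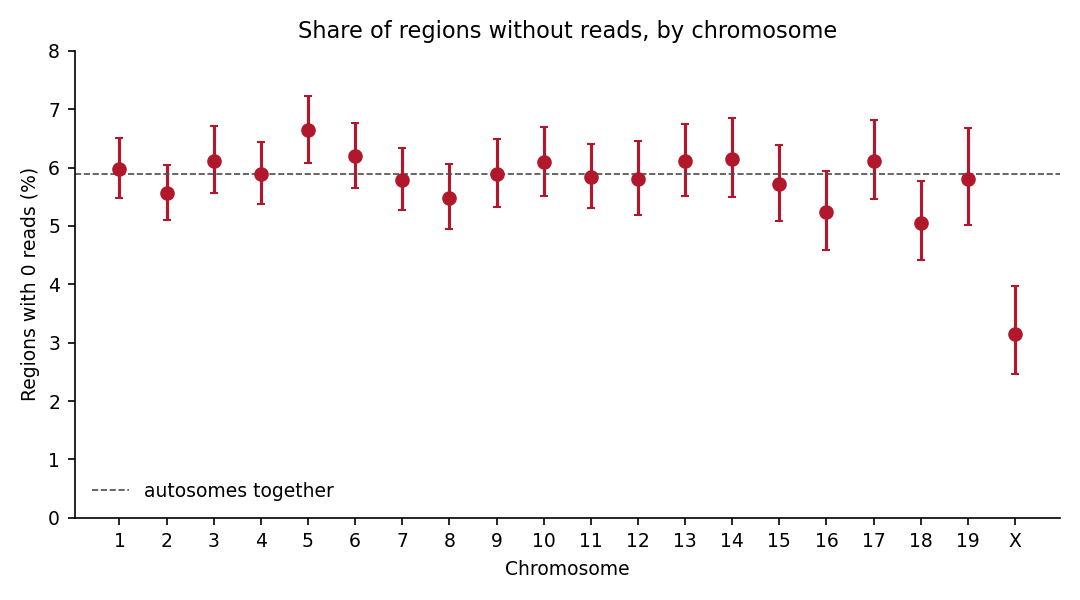
Share of listed regions with 0 reads (vertical axis, %) by chromosome (horizontal axis), with exact 95% binomial intervals. The dashed line is the share over all autosomes, 5.89%, and chromosome X lies below it at 3.15%.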

How the data were processed

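Per the labels' protocols, lysed cells were transposed, libraries were sequenced in pairs on a NextSeq500, and BWA-MEM (mm10), MACS2 and HOMER were used. STAR 2.6.1d and Partek stand in the submitters' processing notes without a role. The sources used here give no word on shifted cut sites, removed duplicates, or whether reads or fragments were counted. Duplicates would raise counts above 0 but leave a count of 0 as it is.

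The authors deposited CPM values of 121574 regions, each 1 read added before division. Whole reads followed from the step of 0.0484 CPM in 99.9% of regions (85 exceptions, tolerance 0.01 read). The authors' deposited table of expected counts, 16382 regions of chromosomes 10, 11 and part of 12, had the same 982 regions at 0. The CPM table has 1 value column without a sample label, which was not used.

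Classes follow region midpoints on GENCODE vM21 basic. Shares have exact Clopper-Pearson intervals, differences of shares Newcombe intervals, all at 95%, computed in Python 3.11.15 with scipy 1.17.1. Nothing was tested, since there is 1 library. Read recovery, word counts and intervals were checked on simulated data. Named genes are the 10 with the most 0-read regions, 5 of those with all regions at 0, and the leading gene of each list. Named regions are the 5 widest, the 5 promoter regions richest in CG pairs and the 5 longest runs. Hoxa13, Emcn, Flt1, Sox17, Col1a1 and Dmp1 were named after their values were seen. Members and lists were chosen with earlier results of these data known. A region and a gene that the rules take are not reported here.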

Additional observations from a re-analysis of the deposited data

How the results depend on the processing

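No paired analysis was possible because the 4 lanes share 1 value column, which also kept lanes from being left out in turn. Of 80 alternatives over 12 results, 50 moved a value by less than its interval. Differences are members minus the comparison group. The cause of each change was not tested, except that weighting or limiting widths removes the width difference itself.

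Against regions with 1 read, differences were -10.0 bases in width, 1.12 points in touching, -1.14 points for TAATTA and -0.255 points for TGTGGTT. Against 4 to 10 reads, they were -88.0 bases, 6.28 points for promoters, -1.74 points for intergenic sequence (opposite in sign to 0.229), 1.32 points for GC content, 0.0188 CG pairs per 100 bases (opposite to -0.0226), 21.1 points in touching, 0.999 points for repeated words, -0.820 points on X, -1.76 points beside a 0-read region, -5.39 points for TAATTA and -2.46 points for TGTGGTT. Among separate regions, they were -0.545 points for promoters (opposite in sign), -23.0 bases, 1.0 points for repeated words and -2.52 points for TAATTA. At 150 bases or more, they were 0.182 points for promoters, -20.0 bases, and -0.580 points in touching, opposite in sign. Weighted to the same widths, touching was -0.541 points, also opposite, and the distance to a TSS 0.850 kb (opposite to -1.37). Small differences whose intervals hold 0 also changed sign: intergenic sequence was -0.241 points against 1 read, and the share beside a 0-read region, -0.361 points, was 0.289 against 1 read and 0.0888 at the same widths. In the regions of the expected count table, intergenic sequence was 2.07 points, GC content -0.0834 points (opposite in sign), CG pairs -0.0814, repeated words 1.53 points and TAATTA -0.879 points; that table holds no X. GC content in 200 bases around the midpoint differed by 0 points. Without readthrough, Gm and Rik models, Gm10295 had 0 members, and by gene body Dap had 5. Depth limits single regions: 0 reads allow up to 3.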

Other observations

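The antigen receptor loci, named after values were seen, held many members for their number of regions. These loci carry the gene segments that B and T cells join, and each was taken from its first to its last annotated segment. The immunoglobulin heavy chain locus Igh, chr12:113254830-116010093, had 79 regions, of which 14 had 0 reads, 42 had 1 to 3 reads and 23 had more, with 294 reads in all. The T cell receptor alpha locus Tra, chr14:52427928-54224206, had 6 of 35 regions at 0. Igk had 0 of 5, Trb 0 of 4, and Igl and Trg had no region. Over these loci, 20 of 123 regions (16.3%, exact 95% interval 10.2 to 24.0) had 0 reads, against 5.84% of all listed regions. Among separate regions of 178 to 329 bases, the middle range of widths in the loci, 9 of 54 in the loci had 0 reads (16.7%, 7.92 to 29.3), against 1623 of 36034 (4.50%) over the whole list.

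Of the 123 regions in these loci, 42 (34.1%) held a repeated 75-base word, and 10 of those 42 had 0 reads. Among the 81 regions without such a word, 10 (12.3%) had 0 reads. The part of repeated sequence in the result was not tested. Of the 13 members assigned to Zfp386, 11 lay in the Igh locus, as did 53 of its 57 regions, since annotated segments are not protein-coding genes under the assignment used here. The run of 3 members near Dad1 lay in the Tra locus.

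Gene families were set beside the 5.84% of all regions, with widths not matched. C-type lectins and killer cell receptors had 15 of 135 regions at 0 (11.1%, 6.35 to 17.7), in 13 of the 27 genes with a region. The families in the next 2 sentences were nearer to that share. Olfactory receptors had 15 of 223 (6.73%), zinc finger genes 141 of 2208 (6.39%) and ribosomal protein genes 20 of 453 (4.42%). Keratins had 4 of 117 (3.42%) and protocadherins 7 of 199 (3.52%). Rik genes had 111 of 2452 (4.53%, 3.74 to 5.43), an interval below 5.84%. Beta-defensins, with only 17 regions, had 0 (0%, interval up to 19.5).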
